A study of Mus musculus with 16 samples.

Results

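Genes of brain microglia and of complement C1q, 7 in all, were followed across 16 mouse oligonucleotide arrays: the complement C1q chains C1qa, C1qb and C1qc, the receptors Csf1r and Cx3cr1, the cytoplasmic protein gene Aif1, and B2m, the light chain of MHC class I. They were chosen by name, and each has 1 probe, printed as 1 spot, among 24109 gene probes per array, out of 18351 named genes in all. The scanner files call C1qc by its older name, C1qg. With 1 spot per gene, no probe had a second measurement on its own array.

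The study set a microfluidic rotary mixer, built to read the transcripts of individual cells, against an ordinary tube reaction and against unamplified RNA. The 3 mixer arrays carried 10 pg of RNA from the forebrain of adult female wild-type B6.C3Sn mice, reverse-transcribed in 7 nL for 20 min and amplified by 40 cycles of template-switching PCR, and the 3 tube arrays carried the same amount of RNA reverse-transcribed in 10 µL for 20 min with 40 cycles. The 4 single-cell arrays each held 1 cell of the caudal ganglionic eminence (CGE), an embryonic forebrain region that produces cortical interneurons, from OF1 mice at embryonic day 14, taken through the mixer with 25 min of reverse transcription and 40 cycles. The 3 explant arrays held 5 µg of unamplified OF1 RNA of the same age from CGE explants (their extraction notes say telencephalon), labelled through aminoallyl nucleotides. The 3 control arrays held 15 µg of unamplified B6.C3Sn adult female forebrain RNA, labelled directly with Cy5. No label says that arrays of a group came from separate animals, so p-values measure the spread between arrays, which may be technical, and the cells, with no animal named, were described without tests.

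Microglia are the resident macrophages of the brain. They depend on signals through Csf1r, the receptor for Csf1 and Il34, and sense neuronal fractalkine, Cx3cl1, through Cx3cr1. The 3 C1q chains assemble into the recognition subunit that starts the classical complement cascade, and microglia are the main source of C1q in the brain, where it tags synapses for removal. Aif1, also called Iba1, binds actin and is the usual histological marker of microglia. B2m is not restricted to microglia, since nearly every nucleated cell can present peptide on MHC class I.

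C1qb, C1qc and C1qa lie next to each other on chromosome 4, all on the minus strand. RefSeq promoter windows on GRCm38.p6 were matched for 5 of the 6 members looked up, and 3 are shown, for the neighbouring chain genes whose changes are compared below and for the fractalkine receptor. Each is the 250 bases before the start, written 5′ to 3′ on the gene's strand. Capitals mark GAGGAA, a core bound by the myeloid factor PU.1, searched on both strands (TTCCTC where it lies on the other strand).
C1qb, chr4:136886201-136886450, minus strand: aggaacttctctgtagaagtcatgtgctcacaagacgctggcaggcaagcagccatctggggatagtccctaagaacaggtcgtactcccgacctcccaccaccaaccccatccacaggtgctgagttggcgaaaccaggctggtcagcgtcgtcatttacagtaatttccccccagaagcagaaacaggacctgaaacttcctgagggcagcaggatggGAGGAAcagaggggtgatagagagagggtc
C1qc, chr4:136892915-136893164, minus strand: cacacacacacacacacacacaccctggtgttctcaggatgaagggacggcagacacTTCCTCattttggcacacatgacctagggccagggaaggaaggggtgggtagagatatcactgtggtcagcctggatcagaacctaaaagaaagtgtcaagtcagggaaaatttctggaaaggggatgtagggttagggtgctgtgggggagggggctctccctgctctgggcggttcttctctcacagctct
Cx3cr1, chr9:120068297-120068546, minus strand: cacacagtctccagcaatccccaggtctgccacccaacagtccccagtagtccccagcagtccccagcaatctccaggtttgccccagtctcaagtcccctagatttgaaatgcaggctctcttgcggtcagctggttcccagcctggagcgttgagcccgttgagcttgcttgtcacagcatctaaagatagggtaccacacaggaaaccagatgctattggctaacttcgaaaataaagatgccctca
C1qb and C1qc each held 1 match and Cx3cr1 held 0. Of 32851 windows of this length, 23.3% held at least 1. These matches describe the letters in the windows, not binding.

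Array brightness set what could be measured. A probe was called detected where its foreground exceeded the local background by 2 background SD. By this limit 37.9% to 54% of gene probes were detected on mixer arrays, 3.25% and 5.76% on tube arrays 2 and 3, 26.5% to 52.5% in cells, 14.8% to 29% on explant arrays and 64.7% to 69.3% on control arrays. Tube array 1 has no deposited background SD, so detection was not called on it. The median intensity above background was 170.5 to 210 on tube arrays, against 3343 to 4176 on control arrays. Labelling and amplification follow the groups. The headers give a scan session for all but the tube arrays, and no session holds more than 1 group, with cell 4 apart from cells 1 to 3, so batch and group cannot be told apart. As a check of tissue, 5 to 11 of 11 neuronal markers were detected on each mixer, cell, explant and control array, but 0 and 1 on tube arrays 2 and 3. In bulk RNA fewer microglia and less RNA per microglial cell cannot be told apart.

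C1qa, the A chain of C1q, separated the groups most widely among the 7 genes. Its intensity above background was 1044, 404 and 474 on the mixer arrays and 373, 145.5 and 314 on the tube arrays. It was 103.5, 55 and 406 on the 3 cells with a usable spot, 4814, 4430.5 and 8814 on the explant arrays, and 35289, 33016 and 30355 on the control arrays. Every amplified array lay below every explant array, and every explant array below every control array. C1qa was detected on none of the 3 mixer arrays, 2 callable tube arrays or 3 measured cells, and on all 3 explant and all 3 control arrays. Of probes detected on all 3 control arrays, 25.8% were detected on no mixer array and 22.4% on all 3 explant arrays, and of those detected on all 3 explant arrays 23.5% were detected in no cell with a call. Within its array the probe stood at the 20.5 to 40.1 percentile of gene probes on mixer arrays, at 5.1 to 31.9 in cells, at 83.5 to 94.9 on explant arrays and at 93.7 to 94.7 on control arrays.

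**Figure D1:**
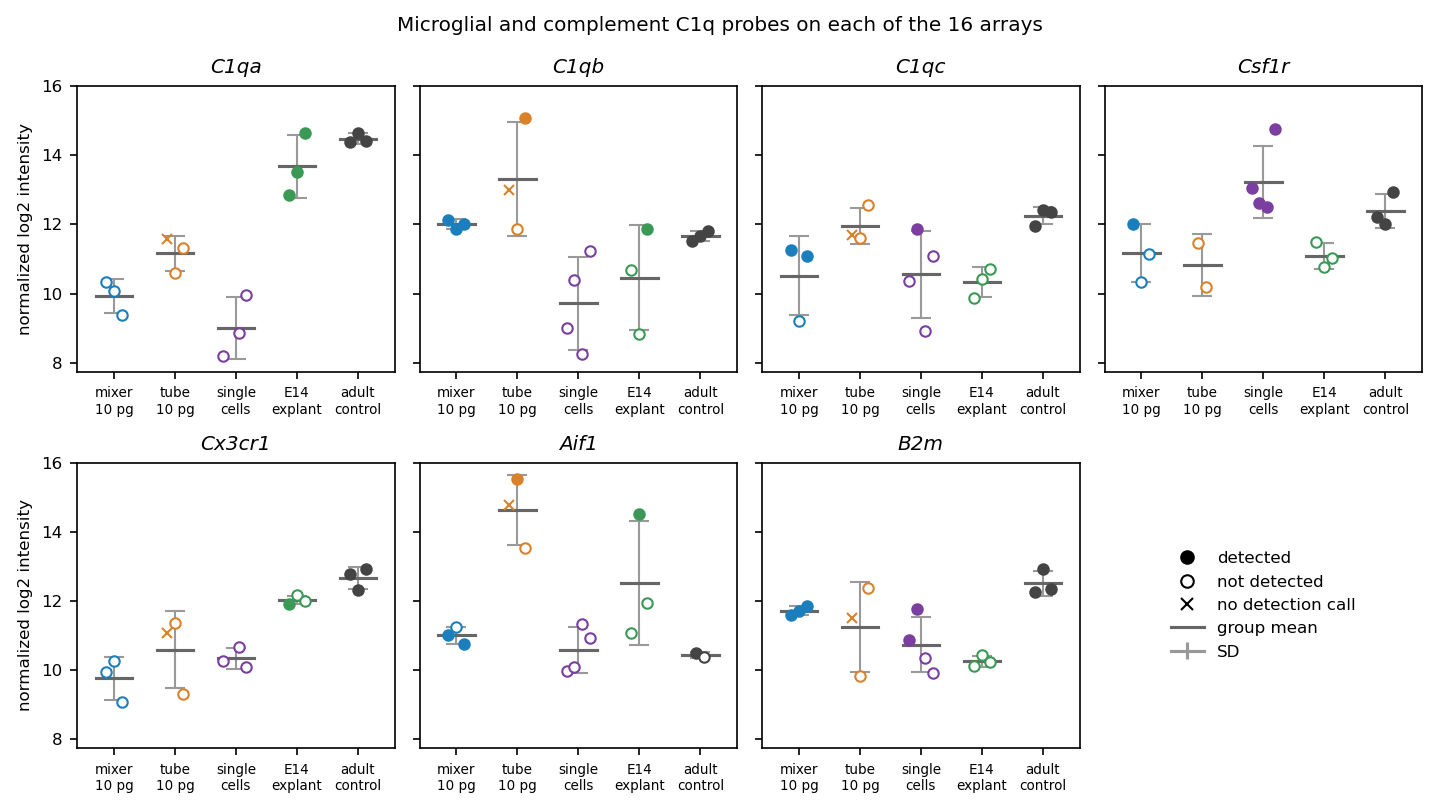
Normalized log2 intensity (vertical axis) of each of the 7 probes on each array, by group (horizontal axis: 10 pg RNA in the mixer, 10 pg RNA in a tube, single cells, embryonic explant, adult control). Filled points are detected, open points are not detected, crosses have no detection call, and bars give the group mean and SD. C1qa is high only in the 2 unamplified groups, whereas Csf1r is detected in all 4 cells.

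C1qb, the B chain, did not follow C1qa. Its intensity above background was 4869, 2257 and 5003 on the mixer arrays, 978, 344.5 and 4581 on the tube arrays, and 7186, 6302 and 7022 on the control arrays. It was 311, 1300, -35 and 1061 in cells 1 to 4, and 958, -1053 and 2110 on explant arrays. After normalization it averaged 12.01 ± 0.14 on mixer arrays, 13.31 ± 1.63 on tube arrays and 11.67 ± 0.15 on control arrays (log2, SD, n = 3 each). The tube arrays were thus widely scattered, with the probe detected on array 3 and not on array 2, while mixer and control arrays were tight. C1qb was detected on all 3 mixer arrays, in none of the 4 cells, on 1 of 3 explant arrays and on all 3 control arrays. Of probes detected on all 3 control arrays, 41.5% were detected on all 3 mixer arrays.

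C1qc, the C chain, was detected on 2 of 3 mixer arrays and on all 3 control arrays. Its intensity above background was 2232, 117 and 2158 on the mixer arrays and 407.5, 293 and 901 on the tube arrays, against 9568, 10153 and 9807 on the control arrays. It was 1088, 5169, 62.5 and 963.5 in cells 1 to 4, and 278, -105 and 996.5 on explant arrays. Mixer array 2 stood far below the other mixer arrays, and cell 2 was the only cell in which C1qc was detected. No explant array detected it.

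Csf1r, the receptor tyrosine kinase on which microglial survival depends, was bright in the single cells, and its normalized mean was highest there. It had 12610, 10165, 4226 and 16198 units above background in cells 1 to 4, 4402, 523.5 and 2301 on the mixer arrays, 267.5 and 123 on the 2 measured tube arrays, 2036, 129.5 and 1250 on the explant arrays, and 11137, 7853 and 13733 on the control arrays. All 4 cells lay above every explant array and all but cell 3 above every mixer array on this scale, and after normalization all 4 cells lay above every mixer array too. The probe was detected in 4 of 4 cells, on 1 of 3 mixer arrays, on no callable tube or explant array, and on 3 of 3 control arrays. Local background at this spot was 1424, 1260.5 and 1414 on the mixer arrays, with an SD of 1493, 12860 and 1796. On mixer array 3 the C1qc spot had a background of 683.5 and an SD of 638. There C1qc at 2158 units was called detected and Csf1r at 2301 units was not, so the mixer count for Csf1r depends on its local background.

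Cx3cr1, the fractalkine receptor, was brighter in both unamplified groups than on any amplified array. It had 760, 495 and 329 units above background on mixer arrays, 253, 252 and 14.5 on tube arrays, 1000, 906 and 460 in the 3 cells with a usable spot, 2734, 1585 and 2293 on explant arrays, and 15480, 9473 and 13567 on control arrays. Explant arrays lay between the amplified and the control arrays without overlap. The probe was detected on no mixer, callable tube or measured cell array, on 1 of 3 explant arrays and on all 3 control arrays.

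Aif1 had 1782, 1299 and 1601 units above background on mixer arrays, 2305, 4855 and 1656 on tube arrays, 781.5, 995, 1521 and 873 in cells 1 to 4, 1461, 8420 and 2236 on explant arrays, and 2692 and 2430 on the 2 control arrays with a usable spot. On this scale every mixer array and every cell lay below both control arrays, and the explant arrays spanned the widest range. The probe was detected on 2 of 3 mixer arrays, in no cell and on 1 of the 2 control arrays. Explant array 2, the dimmest of its group by median intensity, was the only explant array on which it was detected, and tube array 2 the only callable tube array.

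B2m was detected on all 3 mixer arrays, as C1qb was, on no explant array, and on all 3 control arrays. Detection on all 3 arrays was met by 32.4% of all probes in the mixer group, by 13.9% in the explant group and by 58.5% in the control group. Its intensity above background was 3016, 1992 and 4316 on mixer arrays, 354, 50.5 and 796 on tube arrays, 1698, 4701, 695 and 382 in cells 1 to 4, 444, -101 and 656 on explant arrays, and 11542, 13408 and 9701 on control arrays. Cells 1 and 2 detected it and cells 3 and 4 did not, and cells 1 and 2 are also the cells with the largest share of probes detected.

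The order of the normalized group means, given here from lowest to highest, differed from gene to gene. Undetected spots are included. On callable tube arrays only C1qb and Aif1 were detected, each on 1 array, so the place of the tube group is mostly not a measured level. C1qa ran from cells and mixer, which overlapped, through tube arrays without overlap on either side to explant and control, which overlapped. In intensity above background, C1qa was instead higher on every mixer array (404 to 1044) than on any tube array (145.5 to 373). C1qb ran from cells through explant, control and mixer to tube, and among neighbours only mixer and control arrays did not overlap. C1qc ran from explant through mixer, cells and tube to control, with every neighbour overlapping. Csf1r ran from tube through explant, mixer and control to cells, again with every neighbour overlapping. Cx3cr1 ran from mixer through cells to tube with overlaps, and then without overlap to explant and to control. B2m ran from explant through cells and tube to mixer with overlaps, and then to control without overlap. Aif1 ran from control through cells, mixer and explant to tube, all neighbours overlapping.

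**Figure D2:**
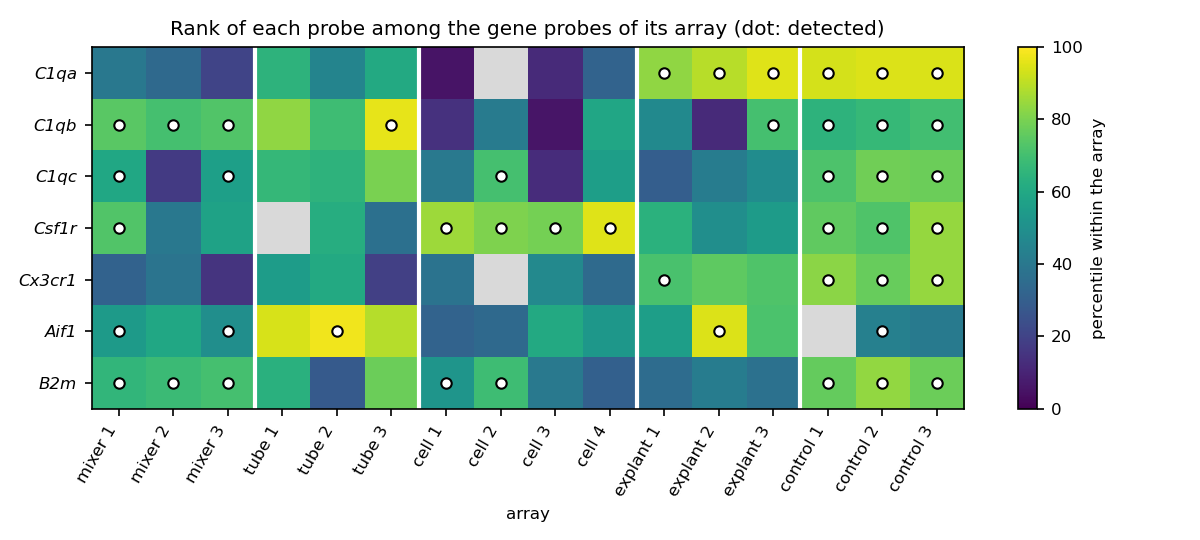
Percentile of each probe (rows) among the gene probes of its array (columns, grouped as mixer, tube, cells, explant and control), with colour from 0 to 100, dots for detected probes and grey for spots marked bad. Csf1r carries a dot in all 4 cells, at percentiles of 79.2 to 94.9, and C1qa only on the explant and control arrays.

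Mixer amplification of 10 pg of adult RNA was compared with the unamplified adult control to ask how far the amplified profile keeps to that of the starting RNA. C1qa, Cx3cr1, C1qc and B2m were lower on mixer arrays, and no member was higher, nor at an unadjusted p under 0.05. The 4 calls are of 6 genes tested, since Aif1 was not detected on every callable array of either group. Over all 15770 probes tested, 59.3% passed limma's test after Benjamini-Hochberg adjustment at 0.05 (34.9% as lower and 24.4% as higher), so the share of members changed is near that of all probes. The median log2 difference was -1.47 over the 6 genes and -0.44 over all probes tested.

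C1qa was at least 15.3-fold lower on mixer arrays. This bound sets an undetected probe at the dimmest intensity called detected on the same array, or at its own value where that is higher. Detection uses each spot's own background SD, so a probe's own limit can lie above this array floor. The bound, like those below, is therefore approximate. The normalized log2 mean of C1qa was 9.94 ± 0.49 on mixer and 14.47 ± 0.15 on control arrays (SD, n = 3 each), a fitted difference of -4.53 ± 0.33 (SE, limma adjusted p = 8.67e-05). Cx3cr1 was at least 4.39-fold lower on mixer arrays, with means of 9.77 ± 0.62 on mixer and 12.67 ± 0.32 on control arrays and a difference of -2.91 ± 0.38 (limma adjusted p = 0.000662). Both calls held under all 17 alternatives, including the omission of any 1 array. Neither gene was detected on a mixer array.

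C1qc was lower by a smaller margin, at 10.52 ± 1.14 on mixer and 12.25 ± 0.25 on control arrays (difference -1.74 ± 0.56, limma adjusted p = 0.0304). That call was lost when any 1 control array was left out (adjusted p = 0.0578 to 0.0881) and with 1 spread taken from all 16 arrays (0.0536). B2m, at 11.72 ± 0.13 on mixer and 12.51 ± 0.36 on control arrays, differed by -0.79 ± 0.29 with a limma adjusted p of 0.0486. The B2m call was lost under 13 of 17 alternatives (adjusted p up to 0.316, and 0.101 with a replicate block), including the omission of any 1 array.

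Csf1r did not pass, at 11.17 ± 0.85 on mixer and 12.38 ± 0.49 on control arrays (difference -1.21 ± 0.48, limma adjusted p = 0.0644). Without mixer array 1 it passed (difference -1.64, adjusted p = 0.0154), as it did on the deposited signal values (0.0223). C1qb did not pass either, with a difference of 0.34 ± 0.26 (limma adjusted p = 0.287). In intensity above background every mixer array lay below every control array (2257 to 5003 against 6302 to 7186). After normalization the 3 mixer arrays all lay above the 3 control arrays. Among all probes tested 68.8% had groups that did not overlap in one direction or the other.

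The chains of C1q, which are made for 1 protein complex from neighbouring genes, were also compared with each other within arrays. Because C1qa was detected on no mixer array, the log2 difference between C1qb and C1qa within an array has only a bound there, and was higher by at least 4.27 on mixer than on control arrays. An exact two-sided permutation test of 3 arrays against 3 cannot give a p below 0.1, so these comparisons could not pass at 0.05. Between explant and control arrays the difference of C1qb and C1qa changed by -0.41, with overlap (exact p = 0.9). That of C1qc and C1qa changed by -1.11 in normalized values, without overlap (exact p = 0.1, and 0.15 adjusted over 6 tests). It was -3.93 to -2.98 on explant arrays and -2.40 to -2.04 on control arrays. However, C1qc was detected on no explant array, where the dimmest detected intensity averaged 11.81 and C1qa 13.68. The explant difference therefore has only a bound, and neither the size nor the direction of this change is settled.

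**Figure D3:**
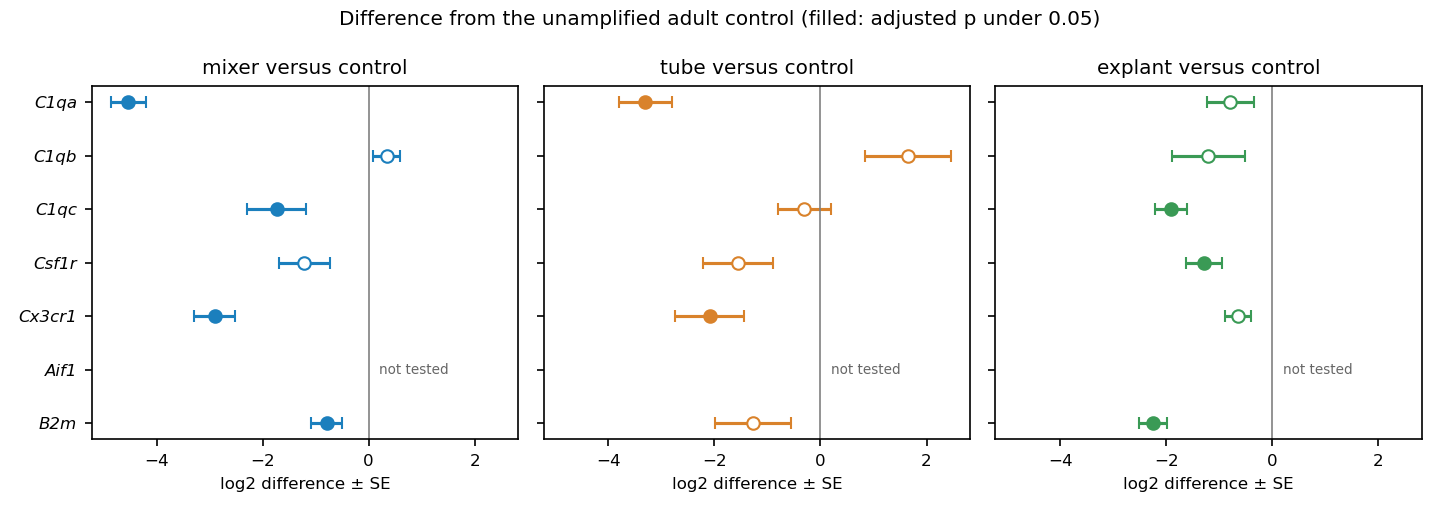
Log2 difference with its standard error (horizontal axis) of each gene (rows) for mixer, tube and explant arrays against the same 3 control arrays. Filled points have a limma adjusted p under 0.05. C1qa is lowest in both amplified groups, B2m and C1qc in the explant group, and Aif1 was not tested.

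On tube arrays with the same 10 pg, the normalized values of C1qa and Cx3cr1 passed the test as lower than the control, but neither was detected on a callable tube array, so neither has a measured level there. That is 2 of 6 tested genes, against 28.9% of 14036 probes (22.3% lower and 6.55% higher). No member was higher at an unadjusted p under 0.05 either. C1qa averaged 11.17 ± 0.50 on tube arrays and 14.47 ± 0.15 on control arrays, a difference of -3.30 ± 0.49 (limma adjusted p = 0.00353) that held under all 18 alternatives. No fold bound can be given for either gene, because the dimmest detected intensity, 14.41 to 15.38 on the tube arrays, averaged 14.96, above both control means. Cx3cr1 averaged 10.59 ± 1.11 on tube and 12.67 ± 0.32 on control arrays, a difference of -2.08 ± 0.65 (limma adjusted p = 0.0468). That call was lost under 7 of 18 alternatives: without tube array 1 (0.052), without any 1 control array (0.121 to 0.159), with a replicate block (0.0659), with quantile normalization within the 2 groups (0.0587) and with an intensity trend in the variance (0.0511).

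C1qb differed by 1.64 ± 0.81 on tube arrays against control (limma adjusted p = 0.163), C1qc by -0.30 ± 0.50 (0.677), B2m by -1.27 ± 0.71 (0.212) and Csf1r, on 2 tube arrays, by -1.56 ± 0.66 (0.123). C1qc, B2m and Csf1r were detected on no callable tube array, so they have no measured level there either. Without tube array 2 C1qb passed as higher (2.37, adjusted p = 0.0334). The Csf1r difference of -2.19 without that array rests on 1 undetected tube spot, since the spot on tube array 1 was marked bad. With median centring Csf1r passed as lower (-1.45, 0.0475). Aif1 was outside the tested probes. In a fit without the filter on dim probes it was higher on tube arrays by 4.18 ± 0.73 (limma adjusted p = 0.00755), at 14.62 ± 1.01 on 3 tube and 10.44 ± 0.08 on 2 control arrays. Before normalization the tube and control spots overlapped, at 1656 to 4855 and 2430 to 2692 units. Within their arrays the tube spots stood at the 89 to 98 percentile, and the control spots at 40.8 and 43.4.

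Mixer and tube arrays, which share the RNA source and amount, could be compared for C1qb and B2m only, since no other member was detected on every callable array of either group. Neither passed limma's test, adjusted or not, where 25.6% of 7368 probes passed after adjustment (20.9% higher and 4.68% lower) and the median over all probes tested was 1.07. C1qb differed by -1.31 ± 0.83 (adjusted p = 0.271) and B2m by 0.48 ± 0.73 (0.654), and without tube array 2 the B2m difference turned to -0.23. B2m was detected on no callable tube array, so its difference is of normalized intensities only. In the fit without the dim filter the normalized intensity of Aif1 was lower on mixer than on tube arrays (-3.61 ± 0.71, limma adjusted p = 0.015), and the other 4 members did not pass.

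Embryonic explants were compared with the adult control, both unamplified but from different strains and labelled differently. B2m, C1qc and Csf1r were lower in explants, and no member was higher. That is 3 of 6 tested, against 41.7% of 14099 probes (26.7% lower and 15% higher), and none was higher at an unadjusted p under 0.05. The median was -1.25 over the 6 genes and -0.32 over all probes tested.

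B2m was at least 1.63-fold lower in explants, at 10.26 ± 0.16 in explants and 12.51 ± 0.36 in controls (difference -2.25 ± 0.27, limma adjusted p = 0.000923), and that call held under all 17 alternatives. C1qc was at least 1.36-fold lower, at 10.34 ± 0.43 in explants and 12.25 ± 0.25 in controls (difference -1.91 ± 0.30, limma adjusted p = 0.0028), a call lost only with 1 spread from all 16 arrays (0.082). Csf1r was at least 1.46-fold lower, at 11.09 ± 0.37 in explants and 12.38 ± 0.49 in controls (difference -1.29 ± 0.34, limma adjusted p = 0.02). The Csf1r call was lost without explant array 2 (0.0522), without control array 1 (0.0502) or 3 (0.0538), and with 1 spread (0.218). These bounds rest on the floor of each array. Bounds from each spot's own background SD were not computed and may be smaller or absent.

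C1qa did not pass in explants, with a difference of -0.79 ± 0.45 (limma adjusted p = 0.19), but it did without explant array 3 (-1.28, 0.0145) and with median centring (-1.01, 0.0394). Cx3cr1 differed by -0.65 ± 0.25 (limma adjusted p = 0.0781), with all 3 explant arrays below all 3 control arrays (57.7% of probes had groups without overlap in either direction), and passed with median centring (0.0254), without background correction (0.0468) and on the deposited values (0.0321). C1qb differed by -1.21 ± 0.69 (limma adjusted p = 0.196), and passed without explant array 3 (-1.91, 0.0294). All 3 comparisons with the adult control use the same 3 control arrays.

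The 4 single cells stood apart from the explants, the bulk tissue nearest to them, in 3 of the 7 genes. Csf1r was 2.14 log2 units higher in cells (13.23 ± 1.04, SD, n = 4) than in explants (11.09 ± 0.37, SD, n = 3), with every cell above every explant array, and by 1.05 on the deposited values. Since no explant array detected it, it was at least 2.62-fold higher in cells. C1qa and Cx3cr1 were detected in no measured cell and have no measured level there. C1qa was at least 5.63-fold lower in cells (normalized means 9.01 ± 0.89 in cells and 13.68 ± 0.91 in explants, n = 3 each). Cx3cr1 was lower in cells in normalized values (10.34 ± 0.29 in cells and 12.03 ± 0.13 in explants, n = 3 each). It was detected on only 1 of 3 explant arrays, so no fold bound is given. For both genes every measured cell lay below every explant array. Such full separation was common, with 22.9% of all probes above and 25.3% below in every measured cell. On the deposited values the normalized C1qa difference of -4.67 was -2.43, and that of Cx3cr1, -1.69, was -0.89.

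Csf1r was also above every mixer array in every cell, by 2.06 units on average. Cell 4, scanned in a session of its own, was highest at 14.75, and cells 1 to 3, at 12.49 to 13.06, also lay above the mixer arrays, at 10.33 to 12.02. Every measured cell lay above every mixer array for 5.44% of all probes and below for 6.94%, and above every explant and every mixer array for 2.37%. C1qb, detected in no cell, was at least 2.02-fold lower in cells than on mixer arrays, with every cell lower. In cell 1 the background SD at the C1qb spot was 1915, so its own limit there lay above the array floor used. C1qc was detected in cell 2, also at 3 background SD, and its mean differed by 0.21 between cells and explants and by 0.04 between cells and mixer arrays, with overlap in both. C1qa, Cx3cr1, C1qb and Aif1 were detected in no cell with a call, as were 40.9% of all probes. Detection in all 4 cells was found for 21% of probes with a call in each, and for 15.1% of those detected on no explant array. Csf1r remained detected in all 4 cells at a limit of 3 background SD.

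Markers of the microglial and macrophage list varied in the same cells. Of 43 genes on the array, 17, 20, 12 and 5 were detected in cells 1 to 4, against 5, 2 and 5 on the explant arrays. Over all probes 44.7%, 52.5%, 35.5% and 26.5% were detected in cells 1 to 4, against 29%, 14.8% and 27.1% on the explant arrays, and the list's share was below that of all probes on each of these 7 arrays. Of these 43 genes only P2ry13, Olfml3, Cd33, Mpeg1 and Pld4 were detected in all 4 cells, as were 21% of all probes. Tmem119 was detected in 3. All of the genes just named but Olfml3 were also detected on all 3 mixer arrays of amplified adult RNA, and Olfml3 on 1. The purinergic receptor P2ry12, the pan-leukocyte phosphatase gene Ptprc, the lysosomal protease gene Ctss, the macrophage gene Adgre1 and the Fc receptor gene Fcgr3 were detected in no cell. Of these only P2ry12 was detected on control arrays, on all 3. The other probes were not detected in adult forebrain RNA either, so they do not show what the cells lack. Markers of other cell types were also detected in all 4 cells: 5 of 11 neuronal genes (Tubb3, Dcx, Slc17a7, Slc17a6 and Nefl), 2 of 11 of oligodendrocytes (Olig2 and Sox10) and 4 of 12 of endothelium and pericytes (Cdh5, Vwf, Cspg4 and Kcnj8), but none of 10 of astrocytes. Among neuronal genes Gad2 was detected in 2 cells, Gad1 and Stmn2 in 1 each and Syt1 in none. The part of other cell types in the Csf1r signal was not tested.

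The ligands and signalling partners of Csf1r and Cx3cr1 were called in both directions on mixer arrays, 2 of 8 tested genes as higher and 3 as lower than control, where 24.4% of all probes were higher and 34.9% lower. Cx3cl1, the neuronal ligand of Cx3cr1, fell by its brighter probe, at least 11.0-fold (difference -4.01 ± 0.35, limma adjusted p = 0.000141), while its other probe was higher by 2.20 (limma adjusted p = 0.00932), so the probes disagree and the gene's direction is not settled. Tyrobp, the adaptor of Trem2 and other microglial receptors, was at least 6.96-fold lower, and Csf1, a ligand of Csf1r, was lower, at -1.38 ± 0.38 (limma adjusted p = 0.0166). Inpp5d, the phosphatase that restrains this signalling, was at least 8.9-fold higher, and the kinase gene Syk, saturated on all 3 mixer arrays, was at least 8.99-fold higher (limma adjusted p = 0.00018). Il34, the other ligand of Csf1r, was detected on no mixer array and on 2 of 3 control arrays, and Trem2 on 1 mixer array and no control array, so neither was tested.

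The tube values that follow for list genes are of normalized intensities, since of the list genes named in tube comparisons only C1ql1 was detected on a callable tube array. Over all probes, 22.3% were lower on tube arrays than in control and 6.55% higher. On tube arrays Tyrobp and the brighter Cx3cl1 probe, among 7 tested partners, were lower than in control, at -3.32 ± 0.65 and -5.41 ± 0.59 (limma adjusted p = 0.00891 and 0.00144), and none passed as higher, with 2 higher at an unadjusted p under 0.05. In explants Tyrobp (at least 2.59-fold lower), Csf1 (difference -1.37 ± 0.33) and Syk (at least 1.38-fold lower) were the 3 of 7 that passed. Cx3cl1 was detected on all 3 explant arrays, and differed from control by 0.67 ± 0.36 (limma adjusted p = 0.171).

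Other microglial and macrophage genes were lower in explants in 8 of 19 tested and higher in none, with none higher at an unadjusted p under 0.05 either, where 26.7% of all probes were lower and 15% higher. Their median was -0.86, against -0.32 for all probes tested. The efferocytosis receptor gene Mertk, detected on no explant array and too dim in controls for a fold bound, was 8.10 ± 0.22 in explants and 10.82 ± 0.30 in controls (difference -2.72 ± 0.26, limma adjusted p = 0.000392). The macrophage pore-forming gene Mpeg1 was 6.21-fold lower in normalized values, at 12.70 in explants and 15.34 in controls. Mpeg1 too was detected on no explant array, so this fold is not a bound. P2ry12 differed by -0.20 ± 0.28 (limma adjusted p = 0.585).

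On mixer arrays 7 of 20 tested genes of the same list were higher than control and 5 lower, against 24.4% and 34.9% of all probes. Pld4 was higher by 2.31 ± 0.28 and Arhgdib by 2.85 ± 0.33, while the lysosomal protease gene Ctsd was at least 8.29-fold lower (limma adjusted p = 0.000242). P2ry12 differed by -0.16 ± 0.41 (limma adjusted p = 0.758). On tube arrays 4 of 19 were lower, Ctsd among them at -4.65 ± 0.86 (limma adjusted p = 0.0072), and none was higher at either threshold. Between mixer and tube arrays 5 of 11 were higher on mixer arrays and none lower, against 20.9% and 4.68% of all probes, among them Gpr34 (2.64 ± 0.58), Pld4 (3.02 ± 0.70) and Cd68 (2.32 ± 0.56).

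**Figure D4:**
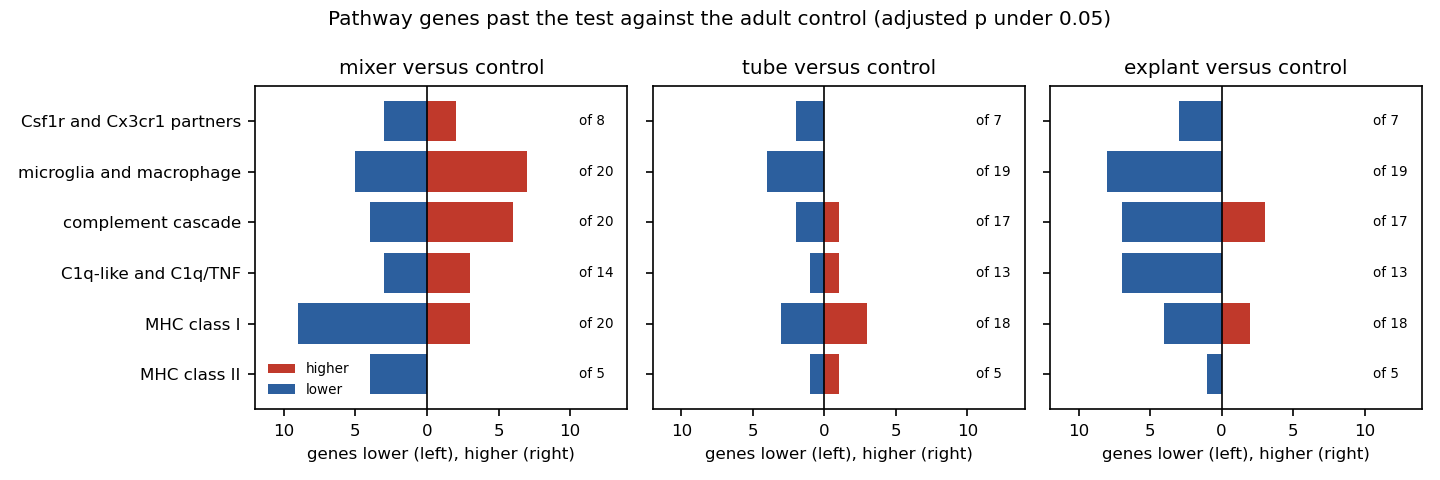
Number of tested genes (horizontal axis) of 6 lists (rows) that were lower (left, blue) or higher (right, red) than the adult control at a limma adjusted p under 0.05, for mixer, tube and explant arrays, with the number tested beside each bar. On mixer arrays every list but MHC class II has genes on both sides, and on explant arrays the microglia and macrophage list has 8 of 19 genes lower and none higher.

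Downstream of C1q, 6 of 20 tested genes of the complement cascade and its regulators were higher on mixer arrays than in control and 4 lower, against 24.4% and 34.9% of all probes. C3, the central component that C1q activation leads to, was 13.27 ± 0.53 on mixer and 9.47 ± 0.31 on control arrays (difference 3.80 ± 0.36, limma adjusted p = 0.00018). It was detected on all 3 mixer arrays but on only 1 control array. The dimmest detected intensity on control arrays averaged 9.85, above the control mean of C3, so the size of this difference is not settled. Masp1, a protease of the lectin pathway, was at least 5.07-fold higher. C1ra, a protease that C1q activates, was detected on 2 of 3 mixer arrays and no control array and was not tested. Vitronectin, Vtn, an inhibitor of the terminal complex, was at least 7.15-fold lower. C3 was also higher on mixer than on tube arrays (3.27 ± 0.58, limma adjusted p = 0.0081), as were 3 of 11 tested in all, with none lower. Of all probes 20.9% were higher and 4.68% lower there.

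In explants 3 of 17 complement genes were higher and 7 lower than in control, against 15% and 26.7% of all probes. C1qbp, whose product is a mitochondrial matrix protein named for its binding to C1q, was higher by 4.15 ± 0.23 (15.53 ± 0.08 in explants and 11.38 ± 0.20 in controls, limma adjusted p = 5.17e-05), and C6, a terminal component, by 2.41 ± 0.29. Vtn was at least 2.97-fold lower. On tube arrays 1 of 17 was higher and 2 lower, with clusterin, Clu, at least 1.35-fold lower, the complement receptor chain gene Itgb2 at -2.71 ± 0.58, and Cfd, which encodes factor D, with normalized values higher by 1.83 ± 0.54 (limma adjusted p = 0.0064, 0.016 and 0.0386). Cfd was detected on no callable tube array and on all 3 control arrays, so it has no measured level on tube arrays.

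Proteins that share the globular C1q domain, the C1q-like and C1q/TNF-related families, were lower in explants in 7 of 13 tested genes and higher in none at either threshold, against 26.7% and 15% of all probes. C1ql3, whose brighter probe was detected on no explant array, differed by -2.85 ± 0.43 there and, at its other probe, by -4.26, C1qtnf4 was at least 1.83-fold lower and the cerebellin gene Cbln3 at least 3.15-fold lower. On mixer arrays 3 of 14 were higher and 3 lower, against 24.4% and 34.9% of all probes. Among them were Adipoq, the adipocyte hormone adiponectin, at least 9.47-fold higher, and C1qtnf9, which differed by -1.92 ± 0.28. On tube arrays Cbln3 was lower (-3.53 ± 0.79) and C1ql1 higher (3.41 ± 0.91) among 13 tested.

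Of B2m's partners in antigen presentation, 9 of 20 tested were lower and 3 higher on mixer arrays, where 34.9% of all probes were lower and 24.4% higher. The heavy chain gene H2-D1 differed by -1.39 ± 0.38, and Tap1, which pumps peptides to the class I complex, was at least 2.32-fold lower. Tapbp, which bridges class I to that pump, was higher by 1.86 ± 0.49, and the chaperone gene Canx, saturated on all 3 mixer arrays, was at least 33.3-fold higher. In explants 4 of 18 were lower and 2 higher, against 26.7% and 15% of all probes. There H2-D1 was at least 2.86-fold lower while Tap1 differed by -0.04 ± 0.24 (limma adjusted p = 0.901). On tube arrays 3 of 18 were lower and 3 higher, against 22.3% and 6.55% of all probes, and H2-D1 differed by -1.63 ± 0.54 (limma adjusted p = 0.0568). MHC class II genes were lower in 4 of 5 tested on mixer arrays, H2-Aa by at least 7.89-fold, in 1 of 5 on tube arrays, with 1 higher, and in 1 of 5 in explants.

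Among the pairs of members, C1qa and Cx3cr1 were most alike across arrays, with a Pearson r of 0.83 over 15 arrays, given as a description because arrays of a group share their preparation and brightness. C1qa and C1qb had an r of 0.19, C1qa and C1qc 0.46, and C1qb and C1qc 0.62. The nearest genes of each member were sought among 8795 or 8796 of the 24109 gene probes, limited to named and detected ones. The probes most like C1qa over 15 arrays were Tbl1x (r = 0.967), Cplx1 (0.963) and Adipor1 (0.961). Those most like Cx3cr1 were Nmt2 (0.956), Dclk3 (0.943) and 1700060C16Rik (0.94), and those most like B2m were Acap3 (0.942), Fmnl1 (0.922) and Rab6b (0.915). For Csf1r the closest were Ttn (0.822), Lmbr1 (0.791) and Tmem132c (0.788), for C1qb Timp3 (0.838), Efr3b (0.824) and Braf (0.822), and for C1qc Dock11 (0.862), Tmprss3 (0.841) and Slc22a6 (0.84). None of these nearest genes is on the microglia and macrophage list.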

How the data were processed

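Expression was measured on 16 one-colour (Cy5) arrays, and groups came from the labels. Per the file headers and columns, the authors deposited each spot's raw foreground and background intensity at 635 nm from the Mapix software, neither subtracted nor normalized. The authors also deposited a table of signal values on a linear scale, whose making is not given in the sources used here, used only as an alternative. Spot marks were used to leave out bad spots that were not saturated. Intensities were background-corrected (normexp, offset 50), quantile-normalized over all arrays, taken to log2 and compared with limma 3.58.1 in R 4.3.3 (two-sided, Benjamini-Hochberg over all probes tested, threshold 0.05). A probe entered a test where detected on every callable array of at least 1 group. Probes were named by RefSeq accession (15488) or platform symbol (4657), and 198 with conflicting names were left unnamed. Some list genes had no named probe and were not analysed here.

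The members and lists were chosen with earlier results of these data known. Genes named are all 7 members, fixed partners and up to 3 per list with the smallest p past the threshold, not all of which are printed. Of several probes for a gene, the brightest was counted. Replicate numbers do not pair arrays (same-number correlations -0.18 to 0.093). Alternatives were other background correction, scaling, filters, detection limits and variance models, a replicate block, each array left out and, added after seeing the data, spots marked bad kept. The test was tried on simulated data. The number of arrays limits the precision.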

Additional observations from a re-analysis of the deposited data

How the results depend on the processing

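The counts of probes past the test moved by over 1.5 times in these settings. For tube against control, 4056 became 6793 without the dim filter, 6092 with a limit from blank spots, and 1687 to 5901 with 1 array left out, 1687 to 1855 of these without a control array. For explant against control, 5875 became 1754 with 1 spread from all arrays. For mixer against tube, 1885 became 3654 with median centring, 2867 with the blank limit, 3140 with 1 spread, and 411 to 2230 with 1 array left out, 411 to 547 of these without a mixer array. The cause was not tested, beyond the smaller groups where an array is left out and the larger number of probes tested under the blank limit or without the dim filter. Of the member differences 306 of those recomputed kept direction and side of the threshold, 29 lost it, 11 gained it, and B2m in mixer against tube reversed to -0.23 without tube replicate 2. The replicate block ended the B2m call for mixer against control (adjusted p = 0.101) and the Cx3cr1 call for tube against control (0.0659), and the numbers share no measured pairing. In cells minus explants no direction reversed for C1qa, Csf1r or Cx3cr1. C1qa became -3.13 without background correction and -2.43 on the deposited values, Csf1r became 1.05 on the deposited values, and Cx3cr1 became -1.06, -1.36 with median centring and -0.89. A blank-spot limit calls far more probes detected, raising Aif1 to all 15 arrays with a usable spot.
The median of all probes moved with scaling, for mixer against control to -0.16 with median centring and for mixer against tube to 1.60. Without the dim filter the medians were near 0, and 3 changed sign: 0.05 for mixer against control (main -0.44), 0.09 for tube against control (main -0.83) and -0.05 for mixer against tube (main 1.07), with -0.01 for explant against control (main -0.32).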

Other observations

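Lists of other cell types gave these counts, where 24.4% of all probes were higher and 34.9% lower on mixer arrays against control, and 15% higher and 26.7% lower in explants against control. On mixer arrays against control, astrocyte genes were higher in 2 and lower in 4 of 9 tested, oligodendrocyte genes in 1 and 5 of 9, neuronal genes in 4 and 5 of 10, endothelial and pericyte genes in 3 and 2 of 11, lymphocyte genes in 2 and 1 of 6, erythroid genes in 2 and 0 of 4, and perivascular macrophage genes in 1 and 2 of 3. In explants against control, astrocyte genes were higher in 1 and lower in 5 of 9, oligodendrocyte genes in 0 and 6 of 9, neuronal genes in 2 and 6 of 10, endothelial and pericyte genes in 0 and 3 of 11, lymphocyte genes in 0 and 3 of 4, erythroid genes in 2 and 0 of 5, and perivascular macrophage genes in 0 and 1 of 3.

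Lymphocyte genes, markers of cells that healthy brain holds few of, were detected on 5 to 8 of 9 probes on mixer arrays, 1 to 4 in cells, none on explant arrays and 4 to 5 on control arrays. All probes were detected at shares of 37.9% to 54% on mixer arrays, 26.5% to 52.5% in cells, 14.8% to 29% on explant arrays and 64.7% to 69.3% on control arrays. Among them Cd79a was detected on all 3 mixer arrays and on no control array. The macrophage gene Ms4a7 was detected in 4 of 4 cells, on 2 mixer arrays and on no explant or control array. Of all probes 21% were detected in all 4 cells.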
